A study of Mus musculus with 48 samples.

Results

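Cortical interneurons are told apart by the peptides and calcium-binding proteins they make, and 9 genes of this kind were followed in the mouse brain after permanent middle-cerebral artery occlusion (MCAO). The genes were *Sst*, *Npy*, *Vip*, *Cck*, *Tac1*, *Crh* and *Cort*, which encode peptide precursors, and *Pvalb* and *Calb2*, which encode parvalbumin and calretinin. They were chosen by name, with earlier results of these data known, and make up 9 of the 46983 gene identifiers in the count tables and 9 of the 19970 genes tested. All 9 passed the filter on low counts, which asked for more than 10 reads in total.

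Parvalbumin, somatostatin and VIP mark separate classes of inhibitory neurons in the cortex. Parvalbumin is a slow calcium buffer of fast-spiking basket and chandelier cells, which act on the soma and the axon initial segment of pyramidal neurons. Somatostatin cells act on their dendrites, often together with NPY or cortistatin, and VIP cells act mainly on other interneurons, in part together with calretinin, CRH or cholecystokinin. The peptides are cut from their precursors in dense-core vesicles and act through G protein-coupled receptors. Not all of these genes are confined to interneurons, since pyramidal neurons are a large source of *Cck* mRNA and projection neurons of the striatum of *Tac1* mRNA, the precursor of substance P.

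RefSeq promoters of GRCm38.p6 were at hand for 7 of the 9 genes, that is *Sst*, *Npy*, *Vip*, *Cck*, *Tac1*, *Pvalb* and *Cort*. The cAMP response element of the *Sst* promoter is a textbook site of the factor CREB, and is shown because it gives the letters searched for in the other promoters. It reads as follows on the minus strand of chr16:23890874-23890903, with the capitals marking the full element TGACGTCA, whose first base lies 48 bases before the RefSeq start.
Sst: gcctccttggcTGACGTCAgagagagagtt
The next sequences are the 120 bases before the start of the 3 genes that fell at day 7 in the results that follow. They lie at chr10:5639098-5639217 on the plus strand (*Vip*), chr9:121495695-121495814 on the minus strand (*Cck*) and chr15:78206401-78206520 on the minus strand (*Pvalb*). Capitals mark the first letters of the element, TGACG, read on either strand (CGTCA on the other), and the TATA box TATAAA.
Vip: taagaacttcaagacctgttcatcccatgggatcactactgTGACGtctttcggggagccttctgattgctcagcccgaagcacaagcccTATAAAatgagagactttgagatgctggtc
Cck: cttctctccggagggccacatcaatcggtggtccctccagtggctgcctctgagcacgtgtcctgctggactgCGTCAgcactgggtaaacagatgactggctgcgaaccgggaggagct
Pvalb: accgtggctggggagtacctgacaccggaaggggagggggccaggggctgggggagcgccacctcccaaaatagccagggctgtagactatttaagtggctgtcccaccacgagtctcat
The 250 bases before the start were searched on both strands, and TGACG is contained in TGACGTCA. *Vip* held TGACG 79 bases and *Cck* 47 bases before the start, *Tac1* and *Cort* held it too, and *Npy* and *Pvalb* did not. Among 32851 promoters of the same length 17.8% held TGACG, 1.55% held TGACGTCA and 12.4% held TATAAA. A match is a description of the letters only.

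Bulk 3′-end RNA sequencing (QuantSeq) was done on 48 libraries of C57Black/6 male mice aged 3 months, in 11 groups. The control was intact cortex of mice without an operation (n = 4), and sham mice had the operation without closure of the artery, which was coagulated and cut in MCAO mice, with tissue taken 3 h, 12 h, 24 h, 3 days or 7 days later (sham n = 4 at each time, MCAO n = 5, at 24 h n = 4). The labels name no allele and no drug for any group, and the model gives a small infarct in the parietal cortex. The labels give the tissue as the injured cortical region with the tissue around it, but the text on the series speaks of forebrain hemispheres and the study of almost whole hemispheres for these samples, so the libraries may hold striatum and other regions beside cortex.

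Between 1522668 and 2826735 reads per library fell on genes, with a median of 1935856. Levels are given in CPM, the reads of a gene scaled to a common total of reads on genes, and since the assay counts 3′ ends without a scale of length, levels were compared between libraries and not between genes. The lowest and highest read counts per library were 311 and 951 for *Sst*, 373 and 4560 for *Cck*, 35 and 540 for *Pvalb* and 14 and 166 for *Vip*. They were lower for *Calb2* (11 and 99) and *Cort* (1 and 47), which limits the precision of their values.

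Neuronal markers were abundant in every group. Over the 48 libraries the pan-neuronal list summed to between 9455 CPM (MCAO of day 7) and 16379 CPM (sham of 24 h). Summed markers of other brain regions differed between libraries. *Tac1* followed 18 genes of striatal projection neurons, of which 17 were tested (Spearman rho 0.93 over 48 libraries, 0.90 within the 24 libraries without occlusion and 0.90 within the 24 MCAO libraries). *Pvalb* ran against 16 genes of the amygdala and hypothalamus, of which 14 were tested (rho -0.86 over 48 libraries, -0.91 without occlusion and -0.65 within MCAO). The points share tissue, dissection and depth, and the values are a description. Library D of 24 h MCAO stood apart with a striatal sum of 6989 CPM, where the other 3 lay at 1082, 1155 and 3324 CPM, and library D of 24 h sham with an amygdala and hypothalamus sum of 379 CPM, where the other 3 lay at 98.8, 106 and 142 CPM. Library C of day 7 MCAO stood apart as well, with fibroblast and microglial sums of 6545 and 6154 CPM where the other 4 reached 714 and 1918 CPM, and with a pan-neuronal sum of 9455 CPM where the other 4 lay at 12642 CPM or above. Without it *Vip* (-1.47, SE 0.35, edgeR adjusted p = 0.00757) and *Pvalb* (-2.41, SE 0.57, adjusted p = 0.00798) were still called against sham at day 7 and *Cck* (-1.04, SE 0.25, adjusted p = 0.0112) was not. No member was called at 24 h without either library D, and the fold changes without these are given beside the members for which they differed most.

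**Figure D1:**
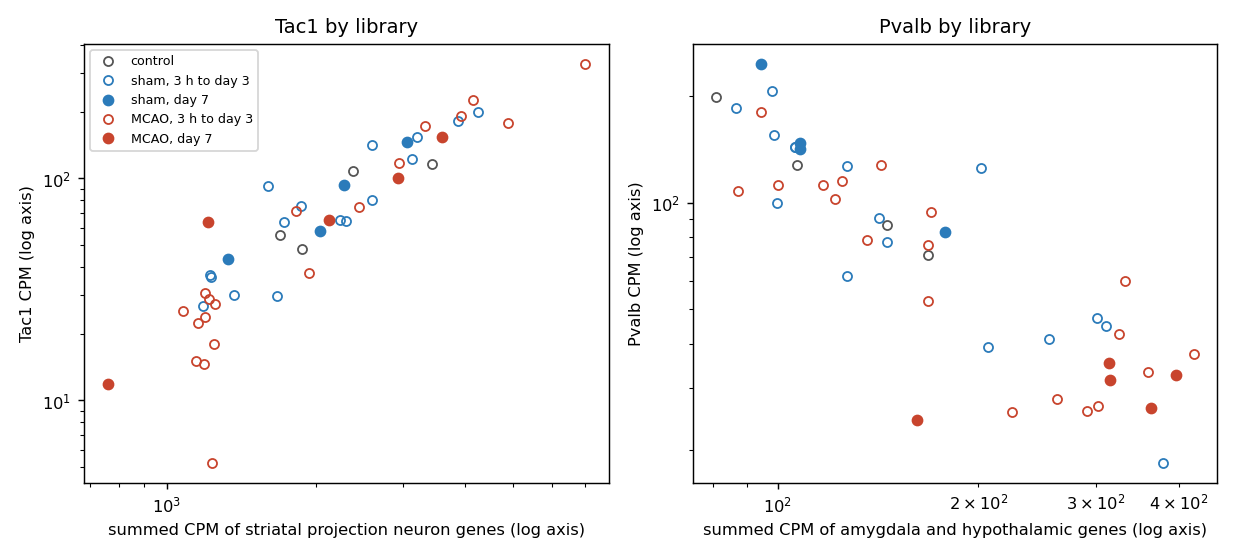
Level of *Tac1* against the summed level of striatal projection neuron genes (left) and of *Pvalb* against that of amygdala and hypothalamic genes (right), in CPM on log axes, 1 point for each of the 48 libraries. Over the 48 libraries *Tac1* rises with the striatal sum (rho 0.93) and *Pvalb* falls with the other sum (rho -0.86), with the MCAO libraries of day 7 at the low end for *Pvalb*.

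The clearest change was at day 7 after MCAO, when *Vip*, *Cck* and *Pvalb* were lower than in sham, while the mean of *Sst* was 261 CPM in MCAO and 265 CPM in sham. The 3 fell to 0.332, 0.483 and 0.195 of sham. They had no overlap between the 5 MCAO and 4 sham libraries, for which no share over all genes is given. They were 3 of 9 members called (edgeR quasi-likelihood test, Benjamini-Hochberg adjusted p under 0.01 and absolute log2 fold change over 0.58) where 3.5% of all genes were (between 241 and 678 genes in place of 698 when 1 library was left out, the lowest without library D of sham), and 8 of the 9 fold changes lay below 0, with a median of -0.71 on the log2 scale against 0.06 over all genes. With a stricter filter on low counts (filterByExpr of edgeR) 789 of 13532 genes were called, a larger share. In bulk tissue fewer cells of a type and less RNA per cell cannot be told apart.

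*Vip* read 15, 16.3, 8.92, 15.4 and 19.4 CPM in the MCAO libraries of day 7. In sham it read 54.4, 30.3, 46.3 and 50.6 CPM. All 5 MCAO values lay below the lowest of the 24 libraries without occlusion, which was 21.9 CPM. The log2 fold change was -1.59 (SE 0.33, edgeR adjusted p = 0.00137), and *Vip* was called in each of the 8 other settings and the 9 fits that left out 1 library.

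*Pvalb*, with the largest fold change of the 9 at day 7, read 35.2, 31.6, 32.7, 26.4 and 24.4 CPM after MCAO. Sham libraries read 147, 82.6, 142 and 246 CPM. The MCAO libraries lay close together (30.1 CPM ± 4.5, SD, n = 5) and the sham libraries were wide apart (154 CPM ± 67.9, SD, n = 4). The sham mean was the highest of the 11 groups, with the control at 121 CPM. Of the 5 MCAO libraries 0 lay below the lowest of the 24 libraries without occlusion (18.4 CPM) and 5 below their median (112 CPM). The log2 fold change was -2.36 (SE 0.52, edgeR adjusted p = 0.00259). Without library D of sham it was -2.05 with an adjusted p of 0.0237, which is no longer a call.

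The amygdala and hypothalamus sum moved with this result. It was 314, 315, 396, 363 and 162 CPM in the 5 MCAO libraries A to E of day 7 and 108, 178, 108 and 94.4 CPM in sham, which overlap in 1 library. In that library, E of MCAO, the sum was inside the sham range and *Pvalb* was at 24.4 CPM, the lowest of its group. Of the 14 list genes tested 0 were called at day 7. Of these 6 had an unadjusted p under 0.05, where 23.5% of all genes did. The mean sum of the 16 list genes was 2.54 times that of sham. The most abundant was *Hap1* (172 CPM ± 49.5, SD, n = 5, against 70.8 ± 23.9, n = 4), and 4 genes had no read in MCAO (*Oxt*, *Agrp*, *Sim1* and *Otp*) and 4 none in sham (*Agrp*, *Trh*, *Sim1* and *Otp*). Over the 48 libraries this sum had a rho of -0.41 with *Vip* and -0.44 with *Cck* (-0.24 and -0.44 without occlusion, -0.33 and -0.24 within MCAO). Larger values, in size, were found with several other sums, of which some follow. With a list of other neuronal calcium-binding protein genes *Cck* had 0.71 and *Vip* 0.57 over the 48 libraries. With pan-neuronal genes they had 0.58 and 0.55. With genes of excitatory cortical neurons *Vip* had 0.57 (0.24 without occlusion, 0.61 within MCAO) and *Cck* 0.6 (0.49 and 0.54). With genes of microglia and macrophages *Vip* had -0.57 (-0.18 and -0.55), and with neutrophil genes -0.61 (-0.25 and 0.04). The part of tissue mix in the falls of *Pvalb*, *Vip* and *Cck* was not tested.

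*Cck* read 820, 643, 625, 727 and 596 CPM in the MCAO libraries of day 7. Its sham values were 1313, 1090, 1163 and 2080 CPM, the last of them the highest of all 48 libraries. The gap between the groups ran from 820 to 1090 CPM, and 4 of the 5 MCAO libraries lay below the lowest without occlusion (816 CPM). The sham mean of 1412 CPM was the highest of the 11 groups, with the control at 1059 CPM. The log2 fold change was -1.05 (SE 0.24, edgeR adjusted p = 0.00284). It was -0.81 with an adjusted p of 0.0469 without library D of sham and -0.92 with an adjusted p of 0.0215 when libraries were scaled to the spike-in RNA, and neither is a call.

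**Figure D2:**
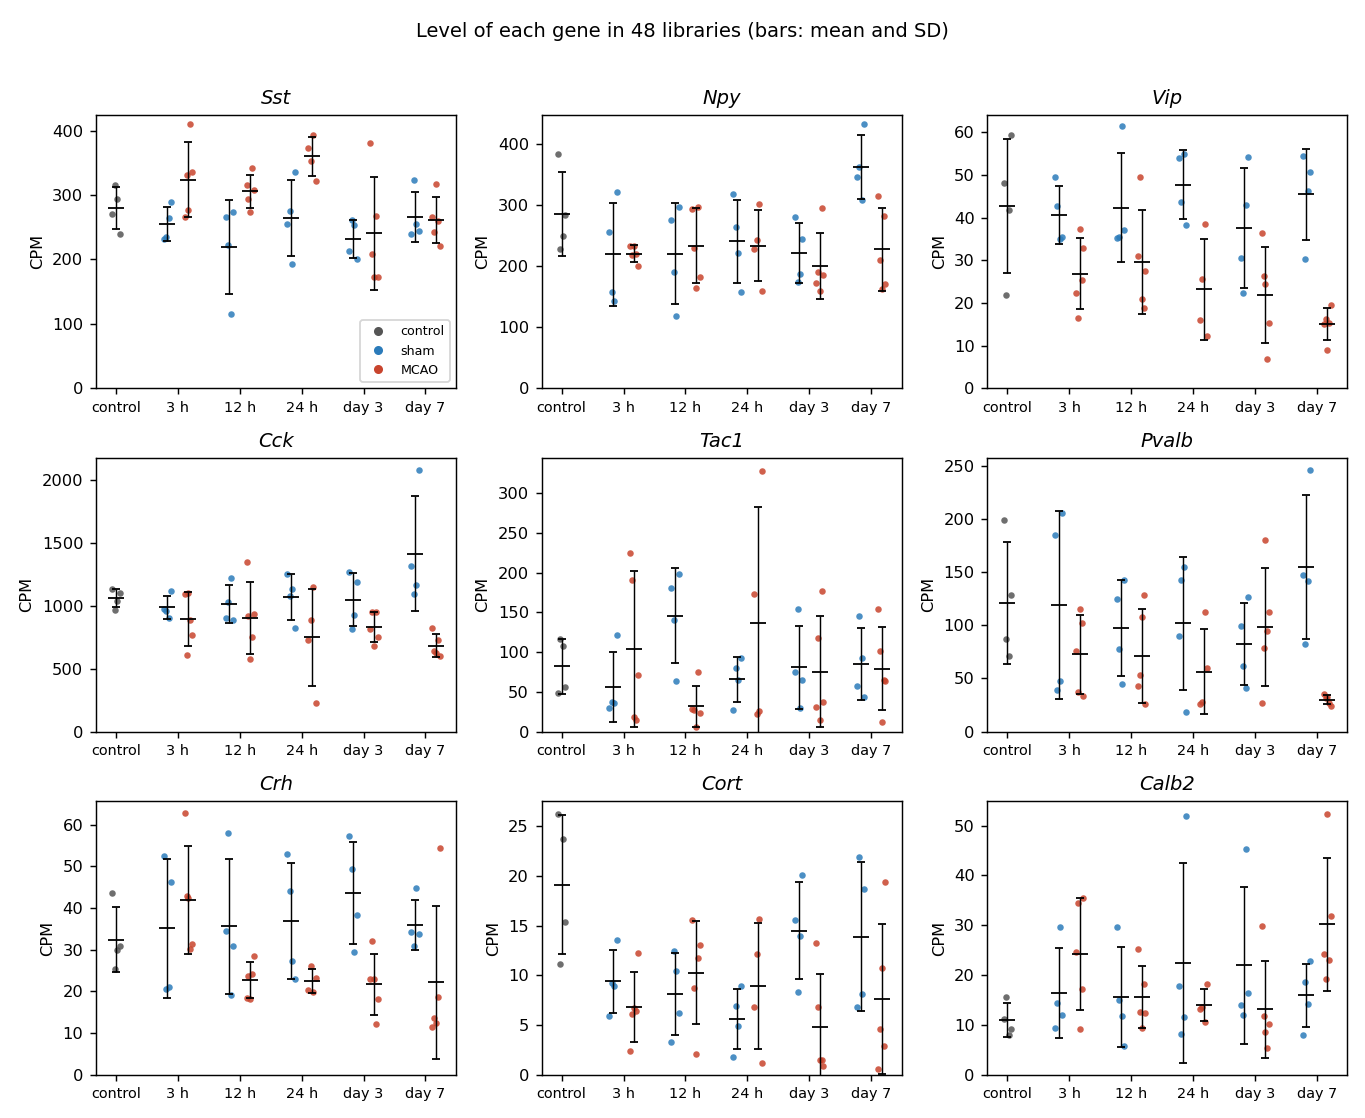
Level of each gene in CPM (linear axes from 0) in all 48 libraries, as points for control, sham and MCAO at each time, with black bars for the mean and SD of a group. At day 7 the MCAO points of *Vip*, *Cck* and *Pvalb* lie below all sham points, and those of *Sst* lie among them.

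Against the control, which is shared by all times, only *Vip* was called at day 7 (1 of 9 members where 1.5% of all genes were), with a log2 fold change of -1.51 (SE 0.33, edgeR adjusted p = 0.00433). That call was lost in 4 of the 9 fits that left out a library (without library A, C or D of the control or C of MCAO, adjusted p from 0.0109 to 0.0394). *Pvalb* had -2.01 (SE 0.53, edgeR adjusted p = 0.0184) and *Cck* -0.63 (SE 0.24, adjusted p = 0.142), and neither was called. All 5 MCAO libraries lay below all 4 control libraries for both. *Calb2*, not called either, lay above all control libraries in all 5 (log2 fold change 1.45, SE 0.49, adjusted p = 0.0916). The share of all genes without such overlap was not counted, so these separations add nothing to the tests.

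*Vip* was below sham on average at every time. Its means were 26.9 against 40.6 CPM at 3 h, 29.5 against 42.3 at 12 h, 23.2 against 47.7 at 24 h, 21.8 against 37.5 at day 3 and 15.0 against 45.4 at day 7, and in order of mean level the 5 MCAO groups took the lowest 5 of 11 places. Of all 24 MCAO libraries 23 lay below the median of the libraries without occlusion (42.8 CPM) and 12 below their lowest. No neighbouring groups in the order were apart without overlap. The 5 MCAO groups of *Cck* took the lowest 5 of 11 places as well. Of its 24 MCAO libraries 20 lay below the median without occlusion (1081 CPM) and 13 below the lowest. Over the 5 times the mean change of *Vip* was -0.90 on the log2 scale (SE 0.14, edgeR adjusted p = 7.24e-06), called in each of the 8 other settings and 44 fits with 1 library left out.

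In this average over times 2 of 9 members were called, both lower, where 4.89% of all genes were called, mostly higher (900 of 977). The other was *Pvalb* (-0.82, SE 0.23, edgeR adjusted p = 0.00914), at the edge of the threshold: it was called in 4 of the 8 other settings and in 18 of 44 fits with 1 library left out, with adjusted p up to 0.0253 and the fold change between -0.65 and -0.94. *Crh* (-0.57, SE 0.15, adjusted p = 0.00581) and *Cck* (-0.44, SE 0.11, adjusted p = 0.00245) passed the p but not the size, and *Crh* was called with spike-in scaling (-0.60, adjusted p = 0.00761) and in 17 of 44 fits with 1 library left out. *Sst* had 0.26 (SE 0.08, adjusted p = 0.0299), on the other side of 0.

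Before day 7 no member was called against sham. This was 0 of 9 at 3 h, 12 h, 24 h and day 3, where 0.11%, 0.411%, 0.0901% and 4.02% of all genes were called by edgeR, and DESeq2 called 0 as well. At an unadjusted p under 0.05 there were 0, 2, 4 and 3 members, where 8.45%, 14.6%, 8.8% and 21.6% of all genes were. Against control the counts were 0 of 9 at the same times, where 0.13%, 0.856%, 0.28% and 3.1% of all genes were called, and DESeq2 called 0 members. Members with an unadjusted p under 0.05 against control numbered 3, 0, 3 and 3, where 9.15%, 16%, 11% and 19.8% of all genes had one.

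**Figure D3:**
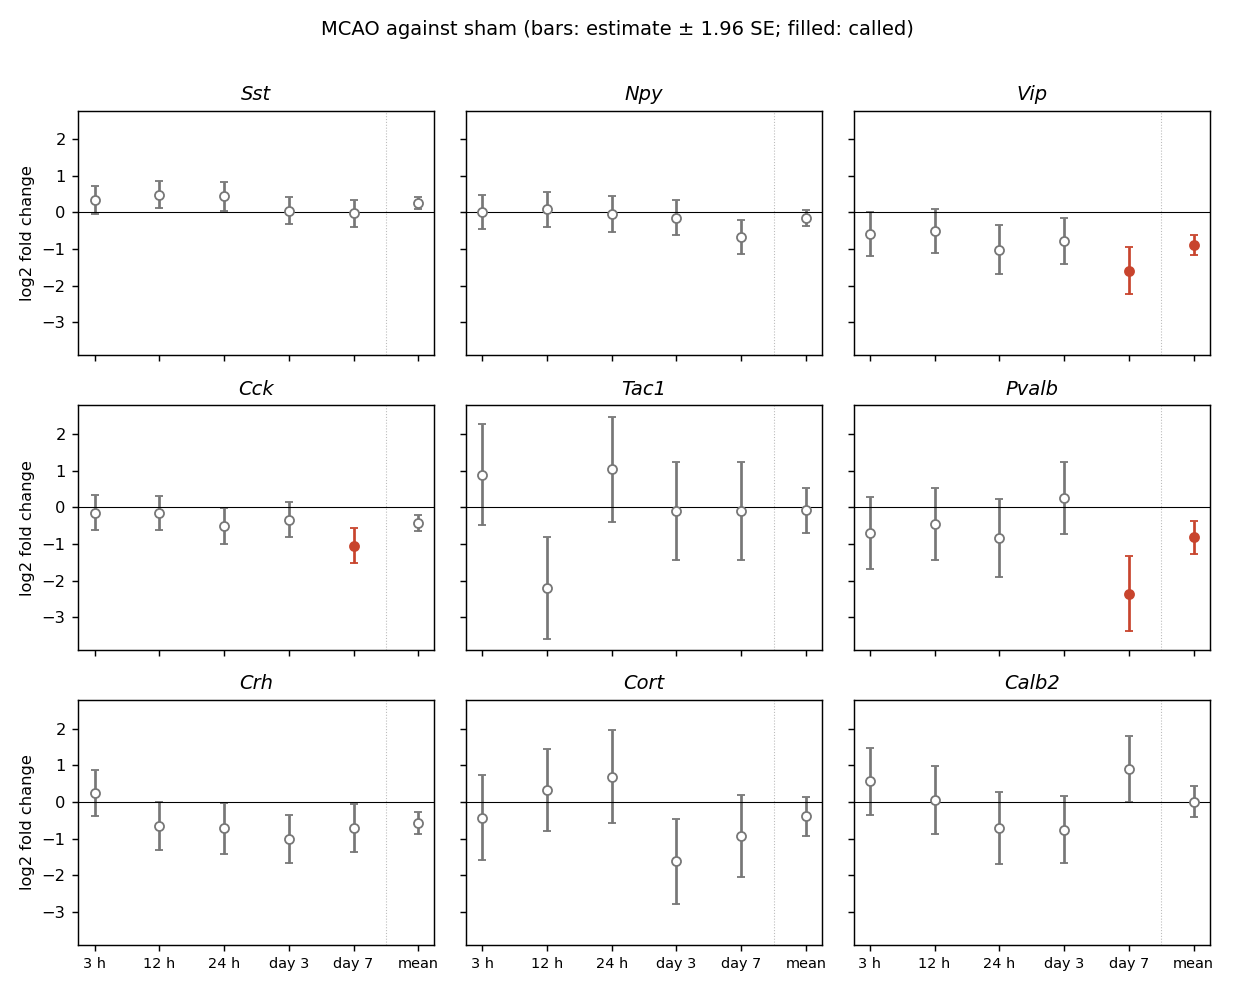
Log2 fold change of each gene in MCAO against sham at 5 times and averaged over them (mean), as the estimate with a bar for its 95% interval; filled red points are called. The called points are *Vip*, *Cck* and *Pvalb* at day 7 and the averages of *Vip* and *Pvalb*.

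*Sst* was the steadiest peptide gene, between 115 and 410 CPM over 48 libraries with a median coefficient of variation of 13.7% within groups. In MCAO it read 265 to 410 CPM at 3 h, 273 to 342 CPM at 12 h and 322 to 393 CPM at 24 h, where sham read 232 to 289, 115 to 274 and 193 to 335 CPM. All 14 MCAO libraries of the first day thus lay above the median of the libraries without occlusion (255 CPM), but each of the 3 groups overlapped its sham. The fold changes were 0.34, 0.48 and 0.44 on the log2 scale (SE 0.19, 0.19 and 0.20), with edgeR adjusted p of 0.633, 0.203 and 0.495, and at 24 h 0.48 without library D of MCAO and 0.58 without library D of sham. At day 7 the change was -0.03 with a 95% interval from -0.39 to 0.34, which leaves out a fall of the size seen for *Vip*. A difference between genes was not tested.

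*Npy*, which encodes neuropeptide Y, was not called. At day 7 it read 315, 210, 162, 282 and 171 CPM in MCAO and 346, 362, 308 and 433 CPM in sham, so that 4 of 5 MCAO libraries were below all sham libraries (log2 fold change -0.67, SE 0.24, edgeR adjusted p = 0.0668). Sham of day 7 had the highest mean of the 11 groups (362 CPM ± 52.3, SD, n = 4), and against control the change was -0.33 (SE 0.24, adjusted p = 0.573).

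*Cort*, the precursor of cortistatin, a peptide near to somatostatin, had the fewest reads behind its values. At day 3 it read 13.3, 6.78, 1.5, 1.46 and 0.881 CPM in MCAO and 15.6, 8.31, 14.0 and 20.1 CPM in sham. The MCAO libraries had the lowest mean of all groups (4.79 CPM) but overlapped sham through library A. The log2 fold change was -1.62 (SE 0.59, edgeR adjusted p = 0.0783), and -2.41 with an adjusted p of 0.00667 without that library, so that 1 library decided the call. Against control it was -2.01 (SE 0.58, adjusted p = 0.0247), called at -2.81 without that library (adjusted p = 0.00175) and at -2.01 with no filter on low counts (adjusted p = 0.00452).

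*Crh*, the corticotropin-releasing hormone, had a lower mean in MCAO than in sham at each time from 12 h on. At day 3 it read 23.0, 32.1, 23.0, 12.2 and 18.1 CPM against 57.3, 49.4, 29.4 and 38.4 CPM in sham, with 4 of 5 MCAO libraries below all sham libraries. The log2 fold change was -1.01 (SE 0.33, edgeR adjusted p = 0.043). At day 7 library E of MCAO read 54.5 CPM and the other 4 between 11.5 and 18.7 CPM, where sham read 30.8 to 44.7 CPM. With that library the change was -0.71 (SE 0.34, adjusted p = 0.19), and without it -1.33 with an adjusted p of 0.00531, which is a call.

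The spread of *Tac1* within groups was the widest, with a median coefficient of variation of 66.3% and a 62.9-fold range over libraries. At 12 h it read 28.6, 27.2, 5.22, 74.7 and 23.8 CPM in MCAO and 181, 141, 63.6 and 199 CPM in sham, with 1 MCAO library inside the sham range (log2 fold change -2.20, SE 0.71, edgeR adjusted p = 0.106). The 17 striatal genes tested lay below 0 in 17 cases at this time, with a median of -1.48. Of these 0 were called by edgeR and 11 had an unadjusted p under 0.05, where 14.6% of all genes did. At 24 h all 17 lay above 0, with a median of 0.80 that includes library D of MCAO. *Tac1* at 24 h read 173, 22.4, 25.4 and 328 CPM in MCAO, and its change was 1.04 (SE 0.73, adjusted p = 0.713), or 0.15 (SE 0.76, adjusted p = 1) without library D. The part of striatal tissue was not tested.

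At 24 h that library also had the lowest *Cck* of all 48, at 228 CPM, where the other 3 read 724, 886 and 1149 CPM. The change of *Cck* was -0.51 (SE 0.25, adjusted p = 0.551) with it and -0.23 (SE 0.22, adjusted p = 0.818) without it. *Vip* at 24 h read 16.1, 25.7, 38.6 and 12.2 CPM in MCAO and 38.3 to 54.9 CPM in sham (-1.02, SE 0.34, adjusted p = 0.254), with -0.84 without library D of MCAO and -1.12 without library D of sham. The lowest *Pvalb* of all libraries, 18.4 CPM, was in library D of 24 h sham. Its change there was -0.84 (SE 0.54, adjusted p = 0.675), or -1.20 (SE 0.53, adjusted p = 0.519) without that library.

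*Calb2* was the 1 member with a fold change above 0 at day 7. It read 24.2, 19.3, 52.4, 23.0 and 31.9 CPM in MCAO and 8.01, 18.7, 14.2 and 22.8 CPM in sham. The MCAO mean was the highest of the 11 groups (30.2 CPM ± 13.2, SD, n = 5) and the control the lowest (11 CPM ± 3.44, SD, n = 4), but against sham the change did not pass (log2 fold change 0.90, SE 0.46, edgeR adjusted p = 0.23). Without library C of MCAO, which read 52.4 CPM, the change was 0.59 (SE 0.48, adjusted p = 0.519). At 24 h the change was -0.72 (SE 0.50, adjusted p = 0.711), and 0.13 (SE 0.52, adjusted p = 0.985) without library D of sham, which read 51.9 CPM. *Calb2* moved with the amygdala and hypothalamus sum (rho 0.67 over 48 libraries, 0.53 without occlusion, 0.74 within MCAO), and the part of that tissue was not tested.

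Sham surgery was set beside the control to see what the operation alone did. Of the 9 members 0 were called at 3 h, 12 h, 24 h, day 3 and day 7 by edgeR and by DESeq2. Over all genes edgeR called 0%, 0.0351%, 0.01%, 0% and 0%. At an unadjusted p under 0.05 there were 3.69%, 5.43%, 4.31%, 3.66% and 8.03% of all genes and 0, 1, 2, 0 and 0 members. The lowest adjusted p was 0.67, for *Cck* at day 7. *Cort* at 24 h read 1.78, 6.95, 4.88 and 8.91 CPM in sham and 26.2, 11.2, 23.7 and 15.4 CPM in the control. These do not overlap, for which no share over all genes is given. Its log2 fold change was -1.74 (SE 0.63, unadjusted p = 0.00766, adjusted p = 0.989), and it was called when only these groups were fitted by edgeR (-1.73, adjusted p = 0.00235).

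The change between times was tested as the difference of MCAO effects, and 0 members were called in any of 5 such differences by edgeR or DESeq2. For the late (days 3 and 7) minus the early effect 1.27% of all genes were called. An unadjusted p under 0.05 was found there for 2 members and 17.8% of all genes. From one time to the next the share called was 0.01% at 12 h, 24 h and day 3 and 0% at day 7. In these steps 1, 1, 1 and 3 members were under 0.05, where 7.12%, 5.08%, 8.82% and 16.2% of all genes were. The lowest adjusted p was that of *Pvalb* from day 3 to day 7, at -2.61 (SE 0.73, adjusted p = 0.0785), which was called with no filter on low counts. *Tac1* had larger differences, -3.10 from 3 h to 12 h (SE 1.00, adjusted p = 0.533) and 3.25 from 12 h to 24 h (SE 1.01, adjusted p = 0.973). *Pvalb* at day 3 read 26.7, 78.2, 180, 94.2 and 112 CPM in MCAO and 41.1 to 127 CPM in sham.

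**Figure D4:**
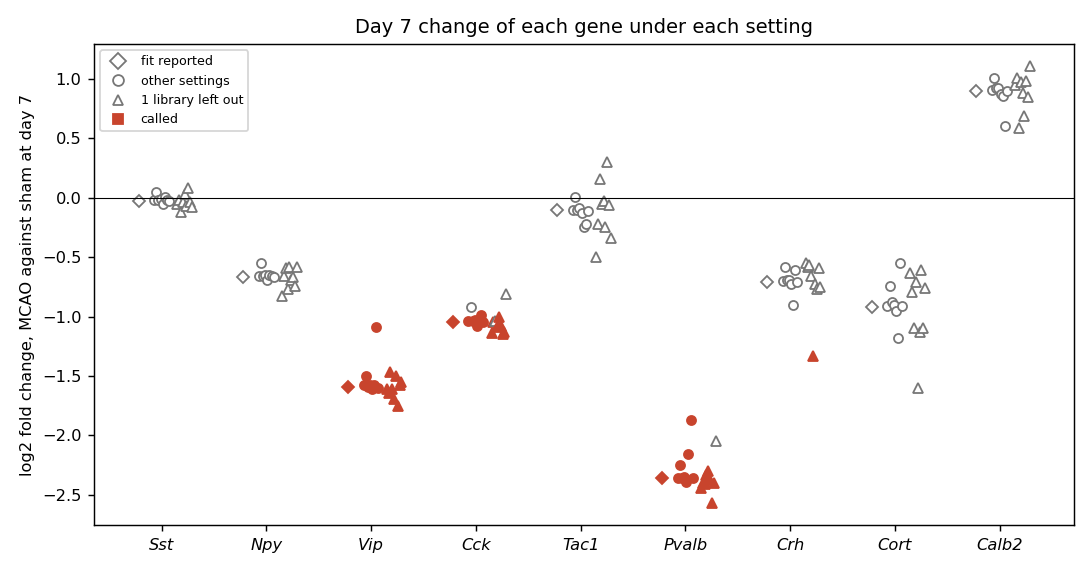
Log2 fold change of each gene in MCAO against sham at day 7 under the reported fit (diamonds), 8 other settings (circles) and 9 fits with 1 library left out (triangles), red where called. *Vip* is red throughout, *Cck* loses the call in 2 fits without a library and with spike-in scaling, *Pvalb* loses it in 1 fit without a library, and *Crh* gains it in 1.

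Of 37 other identity genes of interneurons 0 rose and 1 fell at day 7, which is 2.7% where 3.5% of all genes were called, with a median log2 fold change of 0.08 against 0.06 over all genes. The one that fell was *Satb1*, a chromatin organiser of interneurons and of pyramidal cells (75.9 CPM ± 12.9, SD, n = 5, against 175 ± 24.2, n = 4, log2 fold change -1.21, SE 0.26, edgeR adjusted p = 0.00202). The enzymes of GABA synthesis, *Gad1* and *Gad2*, had 0.56 (SE 0.34, adjusted p = 0.327) and 0.61 (SE 0.35, adjusted p = 0.285), and the vesicular transporter *Slc32a1* had -0.23 (SE 0.33, adjusted p = 0.72). These 3 were picked from the list after their values were seen.

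Of the 37 genes 17 had a fold change below 0 at day 7. The summed level of the identity list, whose most abundant gene was *Id2*, was 0.798 of sham at day 7, and those of the pan-neuronal and the excitatory cortical lists were 0.832 and 0.736 of sham, each without overlap of the libraries. The mean levels of *Vip*, *Cck* and *Pvalb* were 0.330, 0.483 and 0.195 of sham on the same scale.

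Peptides are cut and released by a set of enzymes and vesicle proteins. Of 25 such processing and dense-core vesicle genes tested 1 rose and 2 fell at day 7, with a median of -0.10. This is 12% where 3.5% of all genes were called. At the earlier times 0 of the 25 were called by edgeR. An unadjusted p under 0.05 was found for 0, 7, 5 and 9 of them and for 8.45%, 14.6%, 8.8% and 21.6% of all genes. The carboxypeptidase *Cpd* rose by 0.87 (SE 0.20, edgeR adjusted p = 0.00357), while the vesicle priming factor *Cadps2* (-1.05, SE 0.24, adjusted p = 0.00329) and the Rab3 effector *Rph3a* (-1.04, SE 0.19, adjusted p = 0.00023) fell. *Cpe*, the carboxypeptidase that trims peptide precursors, had 0.05 (SE 0.14, adjusted p = 0.88).

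Of 15 receptor genes tested for these peptides 0 were called by edgeR at any single time. From 3 h to day 7 there were 5, 3, 1, 4 and 4 at an unadjusted p under 0.05. The shares of all genes under 0.05 were 8.45%, 14.6%, 8.8%, 21.6% and 23.5%. Averaged over times 1 of the 15 receptor genes fell, where 4.89% of all genes were called. It was the NPY receptor *Npy1r* (-0.74, SE 0.14, edgeR adjusted p = 9.66e-05), named because it was the only one. Among 30 other precursors of neuropeptides and secreted peptides 1 was called, *Adm*, which encodes the vasodilator adrenomedullin and rose at 12 h (12.7 CPM ± 2.08, SD, n = 5, against 1.42 ± 1.48, n = 4, log2 fold change 3.08, SE 0.59, adjusted p = 0.00209). At 12 h 0.411% of all genes were called.

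Of 29 genes listed as other neuronal calcium-binding proteins, which include the calmodulin-binding neurogranin, 1 rose at day 3 and 2 fell at day 7. This is 3.45% and 6.9% where 4.02% and 3.5% of all genes were called. The chaperone *Calr* had 0.59 (SE 0.15, edgeR adjusted p = 0.00663) at day 3. At day 7 *Nrgn*, the calmodulin-binding neurogranin of pyramidal neurons, had -1.26 (SE 0.26, adjusted p = 0.00122) and the calcium sensor *Vsnl1* -0.76 (SE 0.19, adjusted p = 0.0072).

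The CREB and activity-regulated list had 28 genes, of which 3 rose and 0 fell at 3 h, which is 10.7% where 0.11% of all genes were called, with a list median of 0.87. They were *Fosb* (2.81, SE 0.54, adjusted p = 0.00647), *Gadd45b* (2.52, SE 0.39, adjusted p = 0.000303) and *Nptx2* (2.45, SE 0.42, adjusted p = 0.00132). *Jun* rose at day 7 (1.45, SE 0.29, edgeR adjusted p = 0.000817), and *Homer1*, a postsynaptic scaffold, fell by 0.81 at day 3 and 0.84 at day 7 on the log2 scale. At day 3 and day 7 3.57% and 7.14% of the list were called, where 4.02% and 3.5% of all genes were.

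Markers of other neurons and regions were also called at day 7. Of 22 excitatory cortical genes tested 3 fell, among them *Rorb* (-1.35, SE 0.29, edgeR adjusted p = 0.00178) and *Nptx1* (-0.78, SE 0.18, adjusted p = 0.00473), with a list median of -0.49. Of 18 pan-neuronal genes 3 fell, *Nefm*, *Rbfox3* and *Eno2*, by 0.97, 0.87 and 0.66 on the log2 scale, and *Snap25* fell by 0.67 at day 3. The thalamic list had 1 fall of 12, *Ramp3* (-2.12, SE 0.39, adjusted p = 0.000329), and 1 rise at day 3, *Prkcd* (2.02, SE 0.48, adjusted p = 0.00402).

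Immune, scar and glial lists held called genes as well. At day 7 there were 11 rises of 15 microglia and macrophage genes, for which *Ptprc*, *Cd68*, *Tyrobp* and *C1qa* had log2 fold changes of 3.25, 3.37, 2.84 and 2.45, 7 of 11 fibroblast genes, with *Col3a1* at 6.74, *Col1a1* at 5.26, *Col1a2* at 4.46 and *Dcn* at 2.43, and 3 of 13 astrocyte genes, *Gfap* at 3.10, *Aqp4* at 1.47 and *Gja1* at 1.43. The summed levels of these lists were 3.9, 9.25 and 1.06 times those of sham, or 2.51, 2.72 and 1.13 times without library C of MCAO, and for astrocytes the libraries overlapped. At day 3, when no member was called, 13 of 15 microglial genes rose and their sum was 5.66 times that of sham, and *Gfap* had risen by 12 h (2.67) and 24 h (3.16). Neutrophil genes were called in 4 of 12 at day 3, among them *S100a9* (7.70), *S100a8* (6.96), *Lcn2* (4.93) and *Mmp9* (3.04). Microglial *P2ry12* fell at 12 h (-1.78, SE 0.39, edgeR adjusted p = 0.00927). The part of these cells in the falls of *Vip*, *Cck* and *Pvalb* was not tested.

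The remaining lists held few calls each. Endothelial genes had 3 rises of 11 at day 3 (*Pecam1* 2.02, *Cdh5* 1.99, *Esam* 1.28) and 1 fall at 12 h (*Slco1a4*, -1.12), and oligodendrocyte genes had 2 rises of 15 at day 7 (among them *Pdgfra*, 1.36) and 1 at day 3 (*Olig1*, 0.85). *Igfbp2* of the choroid plexus list rose at day 3 (2.05), and *Fabp7* of the olfactory bulb and subventricular list at day 3 (1.90) and day 7 (2.97). Striatal, hippocampal and amygdala and hypothalamic genes had 0 calls by edgeR at any single time. At day 7 there were 1 of 17, 6 of 14 and 6 of 14 at an unadjusted p under 0.05. The share over all genes was 23.5%.

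The genes whose levels ran most like each member over the 48 libraries were found by Spearman rho among 11739 genes with a mean of at least 5 CPM, and are given as a description without a test. *Vip* was nearest to *Nrsn1* (0.84), *Adcy1* (0.83) and *Mef2c* (0.81), and *Cck* to *Susd4* (0.86), *Nrsn1* (0.81) and *Zbtb18* (0.81). *Pvalb* was nearest to *Cdyl*, *Nat8l* and *Kcnab3* (0.89 each). *Tac1* was nearest to *Gng7* (0.95), *Drd1* (0.94) and *Pde1b* (0.94), of which the first 2 stand in the striatal list.

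The other members had weaker neighbours. For *Crh* these were *Camkk2* (0.79), *Prkca* and *Cdk5r2* (0.73 each), for *Calb2* *Pnck* (0.79) and *Wdr6* (0.75), and for *Npy* *Cox14* (0.75), *Tuba4a* (0.74) and *Btbd17* (0.72). *Sst* reached 0.64 with *Pkia*, 0.63 with *Cnih2* and 0.62 with *Gprasp1*, and *Cort* 0.63 with *Cntnap4*, 0.61 with *Gng2* and 0.59 with *Rgs12*. Among the members themselves *Vip* and *Cck* had a rho of 0.73 and *Pvalb* and *Calb2* one of -0.58, the highest and lowest of the pairs. After group means were removed these were 0.42 and -0.49, and the highest and lowest were then *Npy* with *Cck* (0.54) and *Vip* with *Tac1* (-0.50).

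The members lie apart in the genome, on GRCm38 at chr16:23889573-23890958 (*Sst*, minus strand), chr6:49822710-49829507 (*Npy*, plus), chr10:5639218-5647617 (*Vip*, plus), chr9:121489824-121495694 (*Cck*, minus), chr6:7554879-7565834 (*Tac1*, plus), chr15:78191114-78206400 (*Pvalb*, minus), chr3:19693401-19695396 (*Crh*, minus), chr4:149125034-149126763 (*Cort*, minus) and chr8:110137502-110168210 (*Calb2*, minus). No other annotated gene overlaps them.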

How the data were processed

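QuantSeq 3′ libraries of 48 mice were analysed. The authors trimmed the reads (Trimmomatic), removed mitochondrial and ribosomal reads (SortMeRNA), aligned them to GRCm38 with STAR 2.5.2b and counted them per gene on Gencode vM8 with htseq-count; the deposited values are raw counts. The authors also deposited a DESeq2 variance-stabilized matrix on the log2 scale, used here only as an alternative. Reads without a feature (median 23.5% of alignments), ambiguous or not unique (33.5%) and spike-ins (92 sequences) were left out. Symbols came from Gencode vM21 (46488 of 46983 identifiers matched). Of 358 distinct symbols in the lists 2 were matched to no row (*Kiss1*, *Ctgf*), and some genes stand in more than 1 list.

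All 11 groups were fitted together in edgeR 4.0.16 (R 4.3.3; TMM, glmQLFit, glmQLFTest) on 19970 genes with over 10 counts, with 21 comparisons, each adjusted by Benjamini-Hochberg over all genes. A gene was called where its adjusted p was below 0.01 and its log2 fold change beyond 0.58 in size, as in the methods of the study. The main tool differs from the study's DESeq2. The biological coefficient of variation was 24.9%. Alternatives were DESeq2 1.42.0, its size factors, spike-in scaling, 2 filters, a replicate block, limma 3.58.1 on the log2 matrix, only the groups compared, and each library left out. Named genes were the 9 members, up to 4 genes per list with a mean of at least 2 CPM that were called against sham (largest change first), and the 3 most alike genes per member. *Npy1r*, *Homer1*, *P2ry12*, *Cpe*, *Hap1*, *Id2* and the genes given as having no read were named after their values were seen. A few genes that the rule names are not reported here. Spearman rho taken on CPM does not depend on a pseudocount. The values after group means were removed used log2(CPM + 1), can depend on it, and were run with that pseudocount only. Figures and tables used Python 3.11.15 with pandas 2.3.3, numpy 2.4.6, scipy 1.17.1 and matplotlib 3.10.9. The members and lists were chosen with earlier results of these data known. P-values measure the spread between libraries, 1 per mouse as far as the methods say.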

Additional observations from a re-analysis of the deposited data

Results flagged for a closer look

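Of 99 combinations of a member and a group 6 had a library far from the others of its group (Dixon's 95% critical value), a rule that chance meets in about 1 of 20. All 6 were high values. *Npy* in library D of day 3 MCAO read 295 CPM, where the other 4 read 159 to 191 CPM. *Vip* in library C of 12 h sham read 61.4 CPM against 35.2 to 37 CPM. *Tac1* in library D of 3 h sham read 122 CPM against 29.7 to 36.8 CPM. *Crh* in library E of day 7 MCAO read 54.5 CPM against 11.5 to 18.7 CPM, and this library decides the call at day 7. *Calb2* read 45.3 CPM in library C of day 3 sham against 12 to 16.4 CPM, and 29.9 CPM in library A of day 3 MCAO against 5.37 to 11.7 CPM.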

How the results depend on the processing

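The fall of *Vip* at day 7 against sham and over all times kept its call in every setting run. The 3 members called at day 7 against sham ranged from 1 (without library D of sham, *Vip*) to 4 in fits that left out 1 library, the 1 called against control at day 7 from 0 to 1, the 2 called over all times from 1 to 3, and the 0 called at day 3 against sham or control from 0 to 1 (*Cort*, without library A of MCAO). Over all times 1 member was called with DESeq2, with the deposited matrix and with only the groups compared. Against control at day 7 there were 2 calls with spike-in scaling, 2 with no filter and 4 with only the groups compared (*Vip*, *Cck*, *Pvalb*, *Calb2*). With no filter 1 was called at day 3 against control (*Cort*) and 1 for day 7 minus day 3 (*Pvalb*), and with only the groups compared 1 at 24 h for sham against control (*Cort*). The cause was not tested. Counts of all genes called moved by more than 1.5 times under these settings. Against sham the 22 genes of 3 h became 58 with DESeq2, 58 with no filter, 88 with only the groups compared and 14 with spike-in scaling, the 82 of 12 h became 179, 171, 29 and, with the block, 53, the 18 of 24 h became 44, 55, 112 and, with spike-in scaling, 39, the 802 of day 3 became 530 with only the groups compared and the 698 of day 7 became 1096 with DESeq2. Against control the 26 of 3 h became 80, 74, 186 and, with spike-in scaling, 14, the 171 of 12 h became 283 with DESeq2, the 56 of 24 h became 120, 103 and 197, the 619 of day 3 became 401 with only the groups compared and the 300 of day 7 became 463 with DESeq2 and 461 with no filter. The 254 of the late minus the early effect became 505 and 403, the 0 of day 7 minus day 3 became 57 and 37 (at most 3 in the other settings), and the 977 over all times became 372 with the deposited matrix. For sham against control the 7 of 12 h became 11 with DESeq2, 4 with the block and 2 with only the groups compared, the 2 of 24 h became 14 with DESeq2, 7 with no filter, 6 with spike-in scaling and 71 with only the groups compared, and the 0 of 3 h, day 3 and day 7 became up to 4, 17 and 1. The 2 of each earlier step between times ranged from 1 to 6. With 1 library left out, genes called against sham ranged from 5 to 20 at 3 h, 21 to 102 at 12 h, 6 to 21 at 24 h, 433 to 1350 at day 3 and 241 to 678 at day 7 (284 without library C of MCAO, 427 and 241 without B and D of sham), against control from 10 to 36, 71 to 171, 32 to 51, 355 to 1076 and 82 to 313, for sham against control from 0 to 9, over all times from 864 to 1061, for the late minus the early effect from 161 to 421 and for the steps between times from 0 to 32. Spike-in scaling moved the median of all genes from 0.06 to 0.14 at day 7, to -0.22 at day 3 and to 0.14 at 24 h on the log2 scale.

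Replicate letters are shared between groups, but they do not pair the mice: of 20 pairs of MCAO and sham libraries of 1 time and letter 5 had deviations correlated over 0.1 (from -0.261 to 0.148). With the replicate block 3 members were called at day 7 and 2 over all times (*Crh* at -0.64 in place of *Pvalb* at -0.75, adjusted p = 0.0234 by edgeR), and 602 genes at day 7. Depth limits *Cort* most, at 1 read in the lowest library.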
